A study of Homo sapiens with 8 samples.

Results

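The chromosome 19 imprinted miRNA cluster (C19MC) and the neighbouring miR-371-373 genes were described in 8 neuroblastoma (NB) cell lines profiled by MBD-seq. Its members are the miRNA genes that GENCODE places, in GRCh37, within a stretch of 140 kb of the long arm of chromosome 19, from *MIR512-1* (chr19:54169927-54170024) to *MIR373* (chr19:54291959-54292027). There are 49 of them among 3049 annotated miRNA genes, and all 49 lie on the plus strand. A member was counted as having a peak in a line when a peak overlapped the stretch from 1500 bp upstream to 1000 bp downstream of the precursor's 5' end, called its window here, by at least 1 bp. Peaks in the whole locus and in 50 kb on each side were described as well.

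A miRNA is cut from a hairpin precursor and guides silencing complexes to mRNAs that pair with its seed, bases 2 to 8 of the mature form. C19MC is a primate-specific array embedded in Alu-rich DNA, expressed mainly in placenta and early embryonic cells and reactivated in some embryonal brain tumors. It is imprinted: a CpG island upstream of the array is methylated on the maternal allele and the array is transcribed from the paternal one. The miR-371-373 genes follow the array on the same strand and are known for their expression in pluripotent cells and germ cell tumors.

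MBD-seq sequences sheared genomic DNA after capture with the MBD of MBD2, a protein that binds methylated CpG, so that a peak marks a stretch of captured DNA in that line. The labels give IMR-32, LAN-2, N206 and CHP-902R as *MYCN* amplified (MNA) and SK-N-AS, SJNB-1, SH-SY5Y and CLB-GA as not amplified (*MYCN* single copy). All are established NB cultures with no drug treatment named in the labels, each was sequenced as 1 sample, and the lines of a group serve as its replicates, so that the spread is that between lines. The lists hold between 70816 peaks (SJNB-1) and 112412 peaks (LAN-2). Read depth behind a list is unknown here, a peak gives neither an allele nor a methylation level, and a missing peak means only that none was called.

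The miRNA array proper has 46 members and spans 94550 bp from *MIR512-1* to *MIR516A2*, with a median spacing of 1980 bp between precursor starts (363 to 6124 bp). All 46 lie inside 1 annotated lncRNA of 12 transcripts (ENSG00000269842, chr19:54151309-54267453, plus strand), called the host lncRNA here. Of these, 45 precursors lie in its introns and *MIR1283-1* touches an exon. The first precursor starts 18618 bp downstream of the host start, which itself lies in a CpG island. *MIR371A*, *MIR372* and *MIR373* lie outside the host lncRNA, 26453 bp beyond the end of the array.

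The mature sequences of the 6 members with a window peak in any line are shown, although peaks covered only those of *MIR517A* and *MIR371A* and the 3p form of *MIR372*. A selection of mature forms follows from members that share a seed with one of the 6 and had no window peak. Sequences are from RefSeq (GRCh38.p14 table), 5' to 3', with the seed in capitals.
hsa-miR-524-5p (MIR524): cUACAAAGggaagcacuuucuc
hsa-miR-524-3p (MIR524): gAAGGCGCuucccuuuggagu
hsa-miR-517-5p (MIR517A): cCUCUAGAuggaagcacugucu
hsa-miR-517a-3p (MIR517A): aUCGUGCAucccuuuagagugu
hsa-miR-519d-5p (MIR519D): cCUCCAAAgggaagcgcuuucuguu
hsa-miR-519d-3p (MIR519D): cAAAGUGCcucccuuuagagug
hsa-miR-371a-5p (MIR371A): aCUCAAACugugggggcacu
hsa-miR-371a-3p (MIR371A): aAGUGCCGccaucuuuugagugu
hsa-miR-372-5p (MIR372): cCUCAAAUguggagcacuauucu
hsa-miR-372-3p (MIR372): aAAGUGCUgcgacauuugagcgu
hsa-miR-373-5p (MIR373): aCUCAAAAugggggcgcuuucc
hsa-miR-373-3p (MIR373): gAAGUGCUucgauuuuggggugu
hsa-miR-517b-3p (MIR517B): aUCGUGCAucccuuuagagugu
hsa-miR-517c-3p (MIR517C): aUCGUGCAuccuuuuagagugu
hsa-miR-520a-3p (MIR520A): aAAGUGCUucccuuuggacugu
hsa-miR-520c-3p (MIR520C): aAAGUGCUuccuuuuagagggu
hsa-miR-526b-3p (MIR526B): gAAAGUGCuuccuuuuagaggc
hsa-miR-525-3p (MIR525): gAAGGCGCuucccuuuagagcg

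The members are close relatives. Of the 49, 47 matched the RefSeq table (not *MIR527* and AC011453.1), with 70 mature names, 60 distinct sequences and 38 distinct seeds, of which 21 were shared by at least 2 genes. The seed UCUAGAG was the most frequent, with 11 genes. AAGUGCU, the seed of miR-372-3p and miR-373-3p, was also that of *MIR520A*, *MIR520B*, *MIR520C*, *MIR520D* and *MIR520E* in the array. *MIR517A*, *MIR517B* and *MIR517C* give the same 5p form and share the seed UCGUGCA of the 3p form, and *MIR519D* shares AAAGUGC with *MIR526B*. The precursors are short, from 61 to 124 bp. They hold 75 CpG in all, a median of 1 and at most 4 each, and 8 of the 49 hold none. These counts per hairpin do not show a low CpG content per base. A CG lies within the seed of 15 mature names, among them miR-517a-3p and miR-524-3p.

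Few members had a peak, and none in more than 2 lines. IMR-32 and SJNB-1 each had a peak in the window of 3 of 49 members (6.12%) and LAN-2 in that of 2 (4.08%), whereas the other 5 lines had 0. Among the 3000 other miRNA genes, the window of 13.4% had a peak in IMR-32, 10.6% in SJNB-1, 14.9% in LAN-2, 13.9% in CHP-902R, 12.2% in N206, 11.1% in CLB-GA, 13.4% in SH-SY5Y and 12.4% in SK-N-AS. The share of members was below that of other miRNA genes in each of the 8 lines, as the plot of these shares shows. Over all lines, 6 members (12.2%) had a window peak in at least 1 line, against 43.1% of the other miRNA genes, and 2 (4.08%) had one in at least 2 lines, against 25.9%. The other 43 members had none. Members lie close together and share peaks, so these 6 rest on 4 peaks only and are not independent of each other. Without IMR-32, 3 members had a window peak in at least 1 line, and without LAN-2 or without SJNB-1, 0 had one in at least 2 lines.

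**Figure D1:**
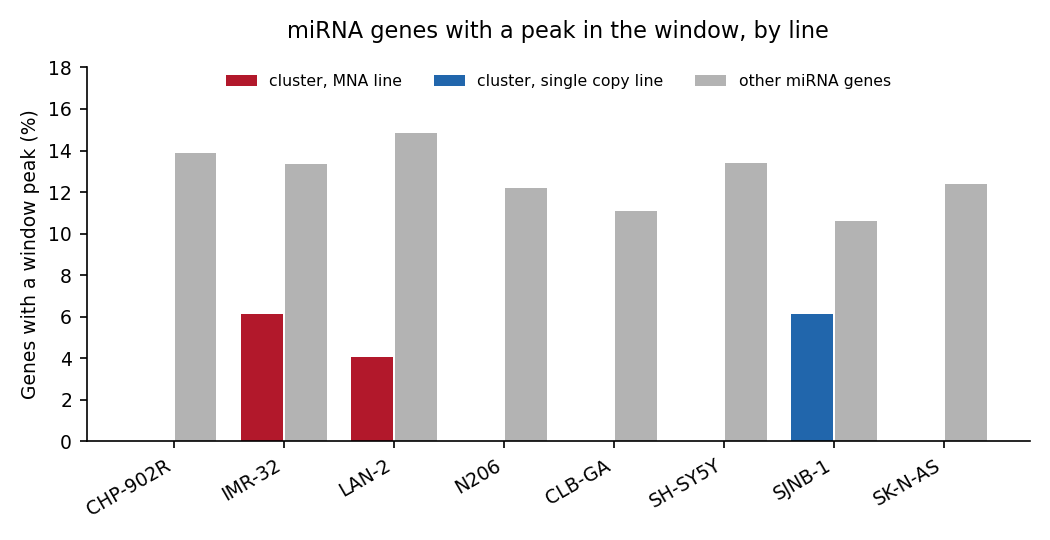
Share of miRNA genes with a peak in the window (y axis, %) in each NB cell line (x axis), for the 49 members (red, MNA lines; blue, *MYCN* single copy lines) and for the 3000 other miRNA genes (grey). The members stand at 6.12%, 4.08% and 6.12% in IMR-32, LAN-2 and SJNB-1 and at 0 in the other lines, and the grey bars run from 10.6% to 14.9%.

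Within the array, the peaks in member windows all lay over 1 place, the *MIR517A* hairpin (chr19:54215522-54215608, host intron). LAN-2 had a peak at chr19:54215371-54216055 with a score of 65.52, and SJNB-1 one at chr19:54215085-54215597 with a score of 52.91. The score is the authors' and rises as the p-value of MACS falls. These scores were higher than those of 32.8% and 11.1% of the peaks of the same list, so that both peaks were among the lower ones of their line. Both peaks covered the mature 5p form (chr19:54215536-54215557) and the 3p form (chr19:54215575-54215596), the latter with the 1 CpG of the precursor. No peak was listed there in the other 6 lines. The same 2 peaks reached into the window of the next gene, *MIR519D* (chr19:54216601-54216688), a member of the miR-17-like seed group, and the SJNB-1 peak also into that of *MIR524* (chr19:54214256-54214342), but neither covered those hairpins. *MIR517B* and *MIR517C*, with nearly the same mature forms, had no window peak in any line.

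The stretch that the LAN-2 and SJNB-1 peaks had in common holds 7 CpG in 227 bp, and 90.7% of the 45 bp windows in it, the length of a read, occur once in GRCh37.

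The miR-371-373 genes had a window peak in IMR-32 only. Its first peak, at chr19:54290503-54291075 (score 69.56, above 46.7% of the IMR-32 peaks), covered the whole hairpin of *MIR371A* (chr19:54290929-54290995). Its second peak, at chr19:54291176-54291665 (score 51.07, above 2.84% of them), covered the 3p form of *MIR372* (chr19:54291185-54291207), which holds 2 CpG, and not the 5p form. *MIR373* was overlapped by none, and the nearest IMR-32 peak ended 294 bp before it. In the other 7 lines the peak nearest to *MIR373* lay between 14713 bp (LAN-2) and 76437 bp (N206) away. Of the 45 bp windows in the second IMR-32 peak, 65.9% occur once in GRCh37, against 100% in the first. The windows of these 3 genes were the richest in CpG among the members, with 3.52 CpG per 100 bp for *MIR371A* and *MIR372* and 3.24 for *MIR373*. Both peaks also lay on 2 further lncRNAs (ENSG00000269564 and ENSG00000269877), whose own windows had a peak in IMR-32 only.

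Within the array, the members with a peak did not stand apart in CpG content. Outside it, the richest windows of all members, at 3.24 to 3.52 CpG per 100 bp, had a peak, in IMR-32 only. Whether content and peaks go together was not tested. Over the 49 windows the content ran from 1.04 to 3.52 CpG per 100 bp with a median of 1.68, above the median of 1.08 over all miRNA genes. The windows of *MIR524*, *MIR517A* and *MIR519D* had 1.84, 1.72 and 1.52. Of the 43 members without a peak, 27 had a content of at least 1.52, and *MIR512-2*, at 2.68, had the highest of these. The share of 45 bp windows that occur once ran from 61.3% to 96.1%, with a median of 89.2% for the members with a peak and 88.2% for those without.

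**Figure D2:**
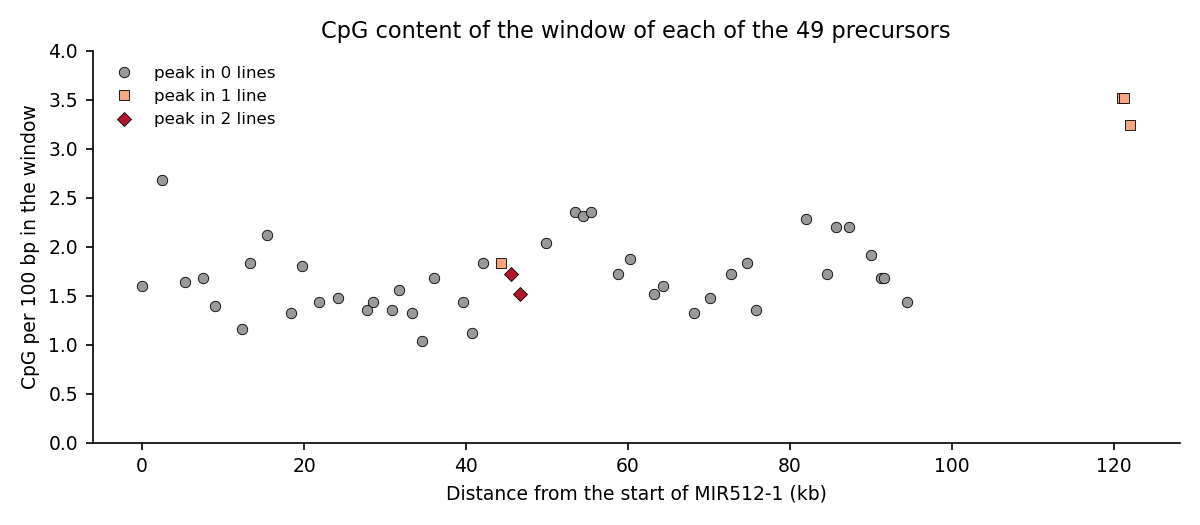
CpG per 100 bp in the window of each of the 49 precursors (y axis) against the distance of the precursor from the start of *MIR512-1* (x axis, kb), with the number of lines that had a peak in the window shown by shape and color. The 3 squares at the upper right are the miR-371-373 genes, at 3.24 to 3.52, while the members of the array with a peak (1.52 to 1.84) sit among those without.

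The map of the locus shows how its peaks were spread. The locus and its flanks held 30 peaks in all, 12 of them in the cluster, of which 8 lay outside every member window. In the cluster, IMR-32 and LAN-2 had 4 peaks each, SJNB-1 had 2, SH-SY5Y and SK-N-AS had 1 each, and CHP-902R, N206 and CLB-GA had 0. Scores of the 12 peaks ran from 50.07 to 90.47 with a median of 64.1, where the lowest score in a list was 50, and none reached 100. At the median, a cluster peak scored above 36.8% of the peaks of its own list. Merging overlapping peaks gave 7 regions in the cluster, of which 4 had a peak in 1 line, 1 in 2 lines and 2 in 3 lines. Over the genome, 56.2% of 369287 merged regions had a peak in 1 line and 22.3% in at least 3.

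Between these regions the array was free of peaks in all 8 lines over long distances. The longest such stretch ran for 57.4 kb, from chr19:54157682 to 54215084, and held the first 23 members, *MIR512-1* to *MIR524*, and 948 CpG. The next held the 14 members from *MIR519D* to *MIR520H* in 32.8 kb, and the last of the array the 8 members from *MIR521-1* to *MIR516A2* in 21.8 kb. In the same order, 87.8%, 87.6% and 83.6% of the 45 bp windows in them occur once in GRCh37, against 87.4% for the rest of chromosome 19. *MIR512-1*, the first member, had its nearest peak 12246 bp away in LAN-2 and between 16381 and 18436 bp away in the other lines except CLB-GA, where it was 88422 bp away.

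**Figure D3:**
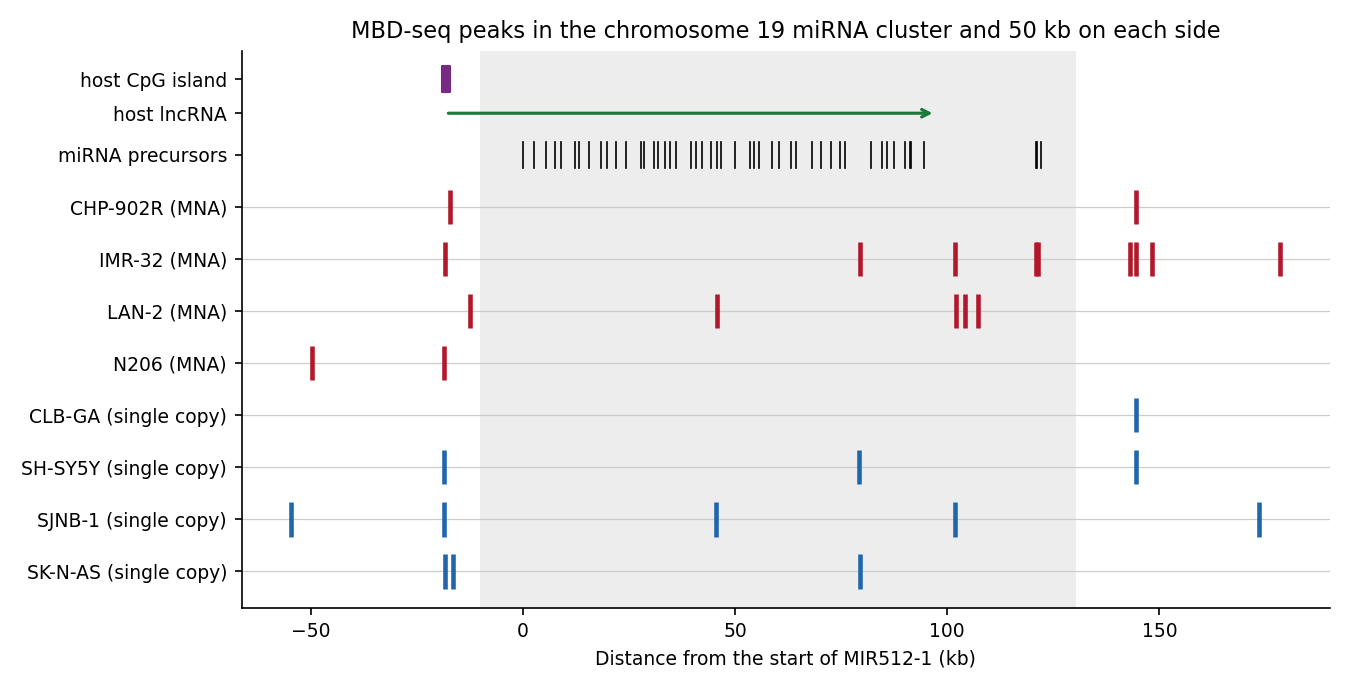
MBD-seq peaks (colored bars; red, MNA; blue, *MYCN* single copy) in each NB cell line (rows) against the distance from the start of *MIR512-1* (x axis, kb), with the 49 precursors, the host lncRNA and its CpG island above and the cluster shaded. The shaded area holds 12 peaks, none in CHP-902R, N206 or CLB-GA, and peaks of 6 lines line up at the CpG island left of it.

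The 2 regions of the cluster shared by 3 lines were both CpG-rich and lay in no member window. The first was in the host lncRNA between *MIR520H* and *MIR521-1*, where SK-N-AS (chr19:54249119-54249655, score 90.47), SH-SY5Y (chr19:54248870-54249416, score 82.71) and IMR-32 (chr19:54249098-54249588, score 70.22) had a peak. These peaks ended 2235 to 2474 bp before *MIR521-1*, the nearest precursor, and entered no member window. The second lay beyond the array in *HMGN1P32*, a processed pseudogene, where SJNB-1 (chr19:54271536-54271975, score 62.69), IMR-32 (chr19:54271455-54272120, score 53.29) and LAN-2 (chr19:54271666-54272128, score 50.07) had one. Both regions thus had peaks in lines of either *MYCN* group. LAN-2 alone had 2 more peaks past the pseudogene, at chr19:54273930-54274467 (score 54.72) and chr19:54276983-54277246 (score 73.42).

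The part common to the 3 peaks held 15 CpG in 298 bp in the first region and 26 CpG in 310 bp in the second. That of the first is shown from GRCh37 with CpG in capitals, since it lies within the host lncRNA at a place where 3 lines had a peak.
Common part in the host lncRNA, chr19:54249119-54249416, plus strand: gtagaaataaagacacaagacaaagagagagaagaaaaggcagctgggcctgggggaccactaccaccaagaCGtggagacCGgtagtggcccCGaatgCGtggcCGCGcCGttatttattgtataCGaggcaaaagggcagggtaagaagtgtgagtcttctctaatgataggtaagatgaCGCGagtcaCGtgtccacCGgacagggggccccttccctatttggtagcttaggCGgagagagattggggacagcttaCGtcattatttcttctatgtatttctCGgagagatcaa

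Most CpG-rich stretches of the cluster had no peak. Stretches of at least 200 bp with a GC content of at least 50% and an observed to expected CpG ratio of at least 0.6 numbered 66 in the cluster, and 5 of them had a peak in any line. Of the 59 shorter than 500 bp, 1 (1.69%) had a peak in at least 1 line, against 34.6% of such stretches on the rest of chromosome 19. Of the 7 of 500 bp or more, 4 had one, against 47.2%. Over the cluster and its flanks together, 15 of 124 stretches of any length had one (12.1%), against 37.1% on the rest of chromosome 19. The stretches of the flanks were not counted apart. Over the 59 shorter ones, the share of 45 bp windows that occur once in GRCh37 ran from 0% to 100%. It was not compared with that of the short stretches elsewhere on the chromosome. The limit of 500 bp was set after the values were seen. Among the 7 longer ones were the region in the host lncRNA, the pseudogene and the stretch over *MIR371A* and *MIR372*, whereas 3 had no peak in any line. These were chr19:54172942-54173451 downstream of *MIR512-2* (21 CpG), chr19:54278375-54279066 (30 CpG) and chr19:54284085-54284627 (22 CpG), in which 50.9%, 98.6% and 77.6% of the 45 bp windows occur once.

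The CpG island at the host start was where peaks recurred. It spans 2074 bp (chr19:54150722-54152795) with 131 CpG, and the host start lies 587 bp into it. A peak overlapped it in 6 lines, namely CHP-902R, IMR-32 and N206 of the MNA lines and SJNB-1, SK-N-AS and SH-SY5Y of the single copy lines, and in neither CLB-GA nor LAN-2. Of the other chromosome 19 stretches of this kind of 1000 bp or more, 13.6% had a peak in at least 5 lines. With scores of at least 100 only, the host island had a peak in 2 lines, N206 and SJNB-1.

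In 5 of these lines the peak lay over the host start itself. N206 had it at chr19:54150789-54151670 and a score of 165.46, above those of 98.4% of its peaks. SJNB-1 had it at chr19:54151042-54151491 and a score of 100.26 (above 88.1%), and SH-SY5Y at chr19:54150775-54151540 with 85.48 (69.7%). Those of SK-N-AS, at chr19:54151172-54151713 with 56.57 (22.8%), and IMR-32, at chr19:54151181-54151740 with 51.02 (2.72%), were weaker within their lists. So the 5 peaks ranged from near the bottom to near the top of their lists. CHP-902R had its peak at the far end of the island, at chr19:54152377-54152900 with a score of 66.64 (44.9%). N206 and CHP-902R thus had a peak at the island and 0 in the cluster, and LAN-2 had 4 in the cluster and none at the island.

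The middle of the island is repetitive. Between the peaks over the host start and that of CHP-902R lie 636 bp with 41 CpG (chr19:54151741-54152376), where 7.09% of the 45 bp windows occur once, against 100% in the first 1019 bp of the island and 98.9% in its last 419 bp. In most of this stretch a read of 45 bp cannot be placed by itself, and whether the gap between the peaks comes from this was not tested. The part that the 5 peaks share (chr19:54151181-54151491) has 28 CpG in 311 bp, and all its 45 bp windows occur once. Its first 300 bp in GRCh37 are shown with CpG in capitals, because they hold the one place of the locus and flanks with a peak in 5 lines.
Common part over the host start, chr19:54151181-54151480, plus strand: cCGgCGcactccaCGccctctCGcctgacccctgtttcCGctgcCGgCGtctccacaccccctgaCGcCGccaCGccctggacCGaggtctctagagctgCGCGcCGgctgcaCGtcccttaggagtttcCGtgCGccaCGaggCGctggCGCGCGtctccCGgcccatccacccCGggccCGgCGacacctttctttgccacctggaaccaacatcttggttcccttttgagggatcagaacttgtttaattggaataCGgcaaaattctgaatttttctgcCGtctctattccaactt

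**Figure D4:**
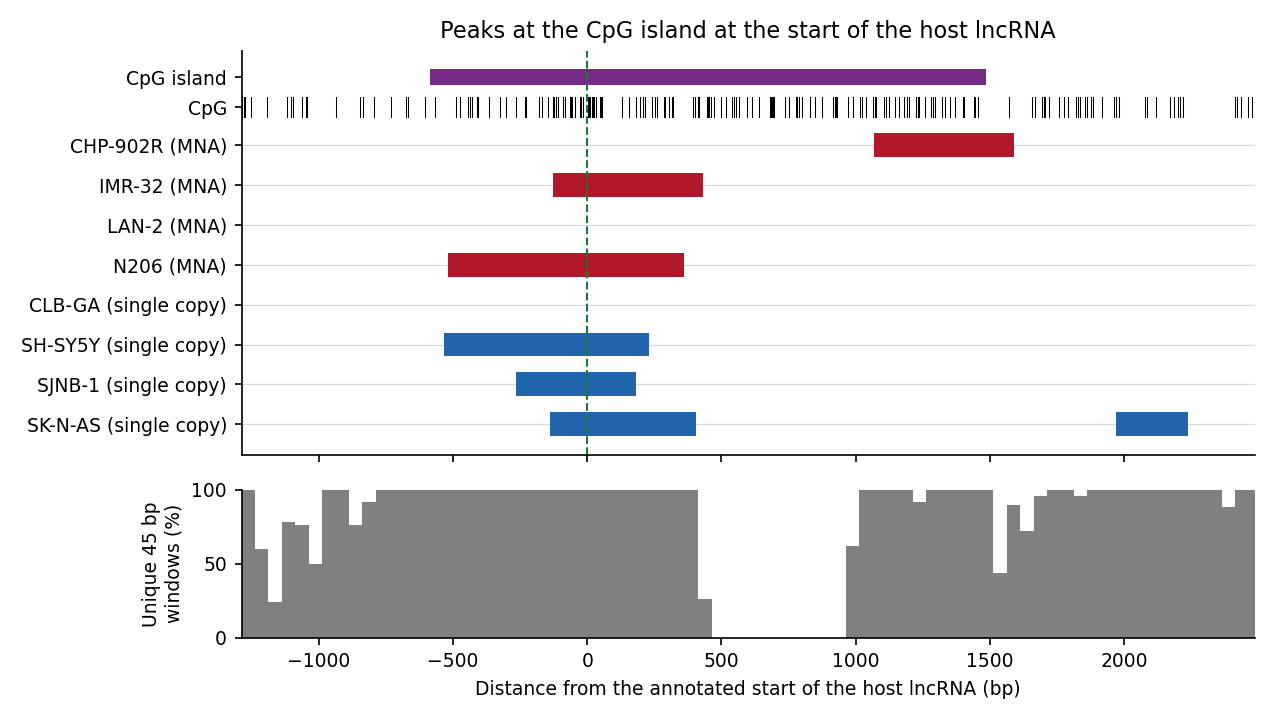
Peaks (bars; red, MNA; blue, *MYCN* single copy) at the CpG island in each NB cell line (rows) against the distance from the annotated start of the host lncRNA (x axis, bp; dashed line), with the island and its CpG above and the share of 45 bp windows that occur once in GRCh37 (%) in the lower panel. In 5 lines the peak crosses the dashed line, that of CHP-902R lies past the stretch without unique windows, and LAN-2 and CLB-GA have none.

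The other upstream peaks were each in 1 line. SK-N-AS had one just past the island (chr19:54153280-54153546, score 81.72), LAN-2 one in the first part of the host lncRNA (chr19:54157276-54157681, score 60.40), N206 one in an intron of *DPRX* (chr19:54119905-54120287, score 81.25) and SJNB-1 another in *DPRX* (chr19:54115027-54115399, score 64.09). On the other side, CHP-902R, IMR-32, CLB-GA and SH-SY5Y had a peak in an exon of *NLRP12*, an innate immune receptor gene, between chr19:54314027 and 54314626, with scores of 98.88, 92.53, 64.11 and 76.06. It was the only peak of CLB-GA in the locus and flanks. The other downstream peaks were each in 1 line. IMR-32 had peaks in *NLRP12* exons at chr19:54312546-54313287 (score 65.05) and chr19:54317956-54318472 (score 52.87). Beyond that gene, SJNB-1 had one at chr19:54343183-54343548 (score 53.97) and IMR-32 one at chr19:54348160-54348734 (score 60.14). Neither *DPRX* nor *NLRP12* had a peak in its own window in any line.

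To compare the cluster with other DNA in the same line, the share of its 2637 CpG covered by peaks was taken. It was 4.51% in IMR-32, 3.19% in LAN-2, 1.63% in SJNB-1, 0.986% in SK-N-AS, 0.834% in SH-SY5Y and 0 in CHP-902R, N206 and CLB-GA. On the rest of chromosome 19 it ran from 5.23% (SK-N-AS) to 7.38% (IMR-32). The cluster was lower in 8 of 8 lines, with a mean of 1.39% ± 1.66 (SD, n = 8) against 6.50% ± 0.730 (SD, n = 8). The mean difference of -5.11 percentage points (SD 1.38) was tested by two-sided exact permutation of the differences within lines (p = 0.00781, the smallest p that 8 lines allow). This test measures the spread between lines at a fixed locus, not the spread between loci. Shares of other stretches of 140 kb were not taken, so how common such a low share is on the chromosome is not known. Low shares were not confined to the cluster. The mean was 3.72% ± 2.26 (SD, n = 8) in the 50 kb upstream and 1.903% ± 2.84 (SD, n = 8) in the 50 kb downstream. The upstream share exceeded that of the rest of chromosome 19 in N206 only (6.82% against 5.902%). The downstream share exceeded it in IMR-32 only (8.56% against 7.38%) and was 0 in LAN-2, N206 and SK-N-AS. The cluster was not tested against its flanks. CpG content was near equal, with 1.88 CpG per 100 bp in the cluster and 1.89 on the rest of the chromosome, and 95.2% and 94.3% of the CpG lay in a 45 bp window that occurs once.

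The imprinted 14q32 cluster (*DLK1*-*DIO3* locus of chromosome 14, 52 miRNA genes) was taken as the most similar locus. It was not matched in composition, with 1.49 CpG per 100 bp against 1.88 in the chromosome 19 cluster. Of its CpG, 98.9% lay in a 45 bp window that occurs once, against 95.2%. Its share of CpG in peaks was 15.0% in CLB-GA, 13.7% in SH-SY5Y, 13.2% in CHP-902R, 8.77% in IMR-32 and 7.84% in SK-N-AS, and it was lower in SJNB-1 (6.69%), N206 (2.18%) and LAN-2 (0). The chromosome 19 cluster was lower in 7 of 8 lines, LAN-2 being the exception, with a mean difference of -7.03 percentage points (SD 6.27; two-sided exact permutation test, p = 0.0234). Restricted to scores of at least 100, the difference was -1.37 points with p = 0.25 in the same exact test. Here too the test was over lines and not over loci. By gene, 38 of the 52 miRNA genes at 14q32 (73.1%) had a window peak in at least 1 line and 6 in at least 4 lines, with *MIR127* in 7. Over the 3000 miRNA genes outside the chromosome 19 cluster, the shares were 43.1% and 8.4%. Neighbouring genes at 14q32 lie close together and often had a peak in the same lines, so these counts are not independent of each other either.

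**Figure D5:**
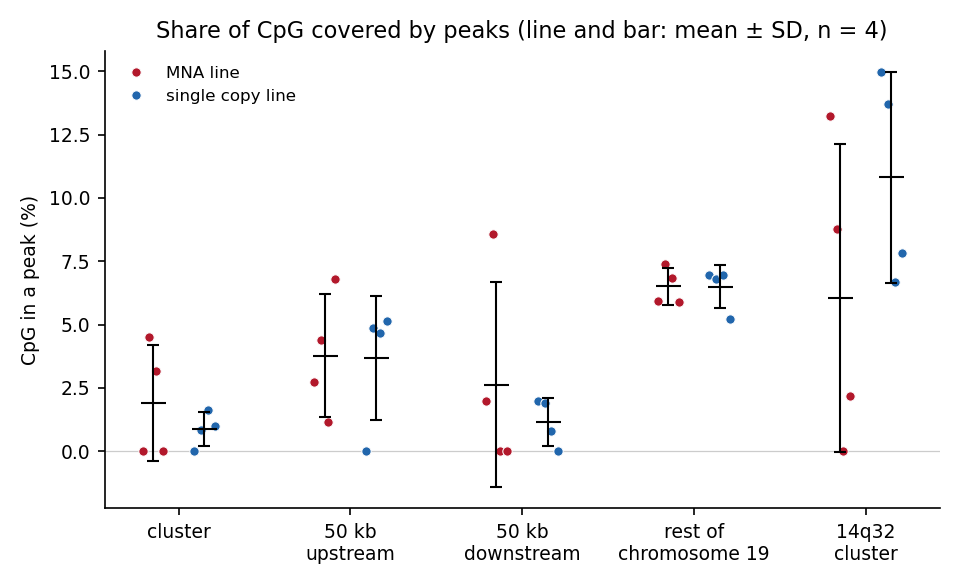
Share of CpG covered by peaks (y axis, %) in the chromosome 19 cluster, the 50 kb on each side of it, the rest of chromosome 19 and the 14q32 cluster. Each point is 1 NB cell line (red, MNA; blue, *MYCN* single copy), and the horizontal line and bar give the mean ± SD of the 4 lines of a group. The cluster lies between 0 and 4.51% and the rest of chromosome 19 between 5.23% and 7.38%.

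No difference between the *MYCN* groups was detected in the cluster. The MNA lines had 1.92% ± 2.29 (SD, n = 4) of its CpG in peaks and the single copy lines 0.863% ± 0.671 (SD, n = 4), a difference of 1.06 percentage points (two-sided exact permutation test, p = 0.457), where the smallest p is 0.0286. The groups overlapped: the MNA lines held both the 2 highest shares and 2 of the 3 zeros. With all lists shortened to equal length, the difference turned to -0.370 points (exact permutation test, p = 0.571), and without IMR-32 it was 0.199 points (p = 0.914 in the same exact test). No member had a window peak in all lines of one group and none of the other, which 0.136% of all 64486 genes had, or in at least 3 lines of one group and none of the other, which 1.17% had. The smallest p of a member in Fisher's exact test was 1, and 88 of all genes reached an unadjusted p under 0.05 while 0 did after Benjamini-Hochberg adjustment over all genes, which this test cannot reach with 4 against 4 lines. The difference between the cluster and the rest of chromosome 19 did not differ detectably between the groups (1.05 points, exact permutation test, p = 0.257), nor did that between the cluster and 14q32 (5.82 points, exact permutation test, p = 0.171).

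Genes linked to the cluster by function or by imprinting differed in how many lines had a peak, where 46.5% of all genes had a window peak in at least 1 line and the median over all genes was 0 lines. Of the miRNAs elsewhere with seeds like those of miR-372-3p or miR-519d-3p, 7 of 10 names matched the annotation, and 4 had a window peak in 1 line each: *MIR20B* and *MIR106A* in CLB-GA and *MIR93* and *MIR106B* in LAN-2. These are neighbouring pairs. *MIR302A*, *MIR302C* and *MIR302D*, miRNAs of pluripotent cells, had none. Of 9 genes for miRNA processing, 5 had a window peak, among them *AGO1*, for an Argonaute protein, in 7 lines, and *DICER1*, for the enzyme that cuts precursors, in 4. *DGCR8*, which binds the primary transcript for DROSHA, had one in CHP-902R, LAN-2 and N206 and in no single copy line (Fisher's exact test, p = 0.143, adjusted p = 1). *DROSHA*, *TARBP2*, *AGO2* and *AGO3* had none.

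All 6 imprinted genes of distal 19q on the list had a window peak, with a median of 5.5 lines, and 5 of them had one in at least 4 lines, against 11.9% of all genes. *PEG3*, a paternally expressed zinc finger gene, the overlapping *ZIM2* and the adjacent *MIMT1* had one in N206, IMR-32, CHP-902R, SK-N-AS, SJNB-1 and SH-SY5Y, which are the 6 lines with a peak at the host island. The windows of these genes share DNA, so that they count as 1 place. The measures differ, since the host was counted by overlap with its island. How often other places had a peak in exactly the same 6 lines was not counted. In its own window the host lncRNA had a peak in 5 of these lines, not in CHP-902R. *ZNF331* had one in 5 lines, of which 3 had a peak at the host island, *USP29* in 5 lines, of which 4 did, and *NLRP2* in IMR-32 only.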

How the data were processed

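Sheared DNA of 8 NB cell lines was captured with MBD2 and sequenced paired-end. The authors mapped reads on GRCh37 with Bowtie 0.12.7 and called peaks with MACS for each line separately. Each deposited list gives the start, end and score of its peaks, which rises as the MACS p-value falls (lowest 50). Score was used only within a list. Options of the peak calling and an input control are not given in the sources used here. With no read counts in the lists, depth per line is unknown here.

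GENCODE release 44, lifted to GRCh37, gave the members and gene types. The members and gene lists were chosen with earlier results of these data known. Windows, merged regions (overlapping or touching peaks), CpG counts, CpG-rich stretches and unique 45 bp windows were obtained in Python 3.11.15 (numpy 2.4.6, numba 0.67.0). Two-sided exact permutation tests and Fisher's exact tests with Benjamini-Hochberg adjustment over 64486 genes used scipy 1.17.1, and the steps were tested on simulated data. Groups follow the *MYCN* labels. Named members had a peak over the precursor, in at least 4 lines or separating the groups by at least 3 lines to 0, or were the first or last member or *MIR371A*, *MIR372* or *MIR373*. *MIR524* and *MIR519D* were named after their values were seen, as 2 of the 6 with a window peak, and so were single members named for their seed or CpG content. Alternatives were a minimum score of 100, lists of equal length (the 70816 best peaks of a line), bases or unique CpG only, the peak midpoint, a window to 500 bp downstream, the precursor alone, peaks within 500 bp merged, at least 50% of a region covered, and leaving out each line. Tag counts behind the authors' DESeq test were not analysed here. Sequences of some regions are not reported here.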

Additional observations from a re-analysis of the deposited data

Results flagged for a closer look

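Each group of 4 lines was examined for a line far from the others, by the gap of its highest or lowest value to the nearest other one as a share of the group's range (Dixon's test for 4 samples). Over the 12 groups examined, 2 values passed, and chance gives about 1 in 20, a rate that does not hold for counts with ties. The share of CpG in peaks of the 50 kb upstream of the cluster was 0 in CLB-GA, against 4.67% to 5.16% in the other single copy lines (ratio 0.906), which have a peak at the host island. SJNB-1 had a window peak at 3 members, against 0 in the other single copy lines (ratio 1), and all 3 rest on its 1 peak over *MIR517A*. Because the other lines tie at 0, any count above 0 would have given this ratio, so the flag carries no weight.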

How the results depend on the processing

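With a score of at least 100, 0 members had a window peak in at least 1 line and 0 in at least 2 lines, 0 regions had a peak in at least 5 lines, the host island had one in 2 lines, and the difference between the cluster and 14q32 was -1.37 points (exact permutation test, p = 0.25). That setting removes all 12 peaks of the cluster. With lists of equal length, the MNA minus single copy difference was -0.370 points (exact permutation test, p = 0.571), and 0 members in at least 2 lines and 0 regions in at least 5 lines remained. With the precursor alone, 3 members had a peak in at least 1 line and 1 in at least 2 lines. Where peaks had to cover at least 50% of a region, 0 regions had 5 lines. Bases, unique CpG only, the midpoint, the window to 500 bp and peaks within 500 bp merged changed no direction or call and no count by over 1.5 times.

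Leaving out each line in turn, the MNA minus single copy difference ran from 0.199 to 1.70 points (exact permutation tests, p = 0.286 to 0.914), cluster minus rest of chromosome 19 from -5.43 to -4.84 (exact permutation test, p = 0.0156 each time) and cluster minus 14q32 from -8.49 to -5.89 (exact permutation tests, p = 0.0156 to 0.0469). Members with a window peak in at least 1 line ran from 3 (without IMR-32) to 6, in at least 2 lines from 0 (without LAN-2 or SJNB-1) to 2, regions in at least 5 lines from 0 (without any of IMR-32, N206, SH-SY5Y, SJNB-1 or SK-N-AS) to 1, and lines with a peak at the host island from 5 to 6. The *MYCN* groups are different cell lines and could not be paired with each other, whereas the comparisons of the cluster with other DNA were paired within lines. Without read counts, no interval can be given for a missing peak, and lists of different length may differ in depth.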
